A study of Mus musculus with 12 samples.

Results

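Sult1e1 and Hsd11b1 encode enzymes that set the local activity of steroid hormones, and the rows of both genes were taken from the deposited table of raw counts by symbol, 2 of 33352 genes. They were chosen by their measured levels in these same libraries, which were already known to differ between the populations, so those levels are given as a description without a test. The study sequenced poly(A) RNA from cells sorted by flow cytometry out of the aorta and its perivascular fat, taken from male CD-1 wild-type mice at 13 weeks of age. CD-1 is an outbred strain, and the 4 populations are named Progenitor, Intermediate, SMC1 and SMC2, where SMC stands for smooth muscle cell. Each had 3 libraries, 12 in all, and all shared sex, strain and age, with no treatment named in the labels. The labels give no antibodies or gates for the sort, and they do not say whether a library number marks an animal. The p-values below thus reflect variation among libraries, some of which could be technical.

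Sult1e1 is the oestrogen sulfotransferase. It moves a sulfonate group from the donor PAPS onto oestrone and oestradiol, and the sulfated hormones no longer bind the oestrogen receptor. Hsd11b1 is a hydroxysteroid dehydrogenase of the endoplasmic reticulum. It works mainly as a reductase that turns the inert keto form of the glucocorticoid into active corticosterone, fed with NADPH that H6pd makes in the same compartment. Hsd11b2 runs the opposite reaction. Both Sult1e1 and Hsd11b1 are known to be expressed in adipose tissue, where Hsd11b1 raises glucocorticoid action inside the cell.

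In GRCm38 (mm10), the GENCODE M21 annotation places Sult1e1 (ENSMUSG00000029272) on chromosome 5, 87575969 to 87591594, minus strand, with 8 exons in 1 transcript of 1242 bases. Hsd11b1 (ENSMUSG00000016194) lies on chromosome 1, 193221634 to 193264075, also on the minus strand, with 10 merged exons from 7 transcripts and 4251 exon bases. No exon base of either gene overlapped another gene's exons. None of the 1193 stretches of 50 bases in Sult1e1 and none of the 4188 in Hsd11b1 recurred in a transcript of another gene, so sharing of reads with a near copy was not found at this length.

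The stretches of 250 bases before the annotated RefSeq start sites are shown because one gene is nearly silent in Intermediate cells while the other is not. The capitals mark the only match to the motifs searched. The Sult1e1 stretch is chr5:87591612-87591861 and the Hsd11b1 stretch is chr1:193242361-193242610, both GRCm38.p6, minus strand, written 5′ to 3′.
Sult1e1: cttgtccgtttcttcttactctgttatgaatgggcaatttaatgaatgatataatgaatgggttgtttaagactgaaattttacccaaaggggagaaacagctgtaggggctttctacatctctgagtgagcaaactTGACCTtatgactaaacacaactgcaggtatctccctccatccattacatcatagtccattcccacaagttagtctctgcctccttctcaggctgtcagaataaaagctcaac
Hsd11b1: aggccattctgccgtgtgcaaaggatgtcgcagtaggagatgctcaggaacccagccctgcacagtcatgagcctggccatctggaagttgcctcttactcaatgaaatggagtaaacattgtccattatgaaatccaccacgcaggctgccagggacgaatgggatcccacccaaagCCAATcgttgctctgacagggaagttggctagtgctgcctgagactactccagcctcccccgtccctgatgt

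The Sult1e1 stretch was poor in CpG, with 1 such dinucleotide and 40.8% G and C, against medians of 6 and 52.4% over 32851 mouse promoters of the same length. The Hsd11b1 stretch was near those medians, with 6 and 54.4%. In Sult1e1 the match was TGACCT, which reads AGGTCA on the other strand, the half-site bound by many nuclear receptors, starting 113 bases before the start site (position -113). That half-site was present on either strand in 14.0% of the promoters. In Hsd11b1 the match was a CCAAT box at position -72, present in 33.8% of them. Neither stretch held the TATA box TATAAA (12.4% of promoters), the C/EBP motif TTGCNNAA (9.56%), the glucocorticoid half-site AGAACA (16.1%), the AP-1 motif TGANTCA (6.75%) or the GC box GGGCGG (32.7%). Both also lacked the full palindromes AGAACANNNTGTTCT (0.00913%) and GGTCANNNTGACC (0.0639%), the first of which contains the glucocorticoid half-site. These are descriptions of letters in a window, on both strands. The RefSeq start of Sult1e1 lies 17 bases from the GENCODE 5′ end, whereas that of Hsd11b1 lies 21715 bases inside it, and gene counts do not show which start was used.

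The libraries held 13258631 to 22647175 counts. The fibroblast and smooth muscle marker lists separated Progenitor and Intermediate from SMC1 and SMC2. Summed levels of 10 fibroblast and progenitor markers were 41190 to 63087 CPM (read counts scaled to a common library size) in Progenitor and Intermediate libraries and 427 to 1971 in the others. The 8 smooth muscle markers summed to 21275 to 37256 CPM in SMC1 and SMC2 and 274 to 674 in Progenitor and Intermediate. No marker of the 9 lists was at 0 in all libraries of a population.

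Sult1e1 was high in Progenitor and low in the other populations. It stood at 688, 448 and 455 CPM in Progenitor replicates 1 to 3, from 6713 to 15097 counts, a mean of 530.2 ± 137 (SD, n = 3). In Intermediate the values were 0.870, 1.256 and 1.15 CPM, from 14 to 20 counts, a mean of 1.09 ± 0.199. Every Progenitor library therefore lay far above every Intermediate library. SMC1 had 2.55, 0.839 and 0.937 CPM (1.44 ± 0.958), and SMC2 had 3.36, 6.32 and 8.40 CPM (6.03 ± 2.53). The order of the means was Progenitor, SMC2, SMC1 and Intermediate. SMC2 libraries all lay above those of SMC1 and Intermediate, while the libraries of SMC1 and Intermediate overlapped.

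Hsd11b1 was high in both Progenitor and Intermediate. Progenitor libraries had 913, 656 and 705 CPM (758 ± 136, SD, n = 3), and Intermediate libraries had 727, 877 and 769 CPM (791 ± 77.2). The libraries of these populations overlapped, and each library came from 9842 to 20032 counts. SMC1 had 12.6, 4.90 and 4.04 CPM (7.19 ± 4.73), and SMC2 had 4.83, 8.69 and 11.8 CPM (8.43 ± 3.47). Those populations also overlapped each other, and both lay far below Progenitor and Intermediate. The order of the means was Intermediate, Progenitor, SMC2 and SMC1, with no separation inside either pair. These are bulk samples, so fewer cells with the RNA and less RNA per cell cannot be told apart.

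**Figure D1:**
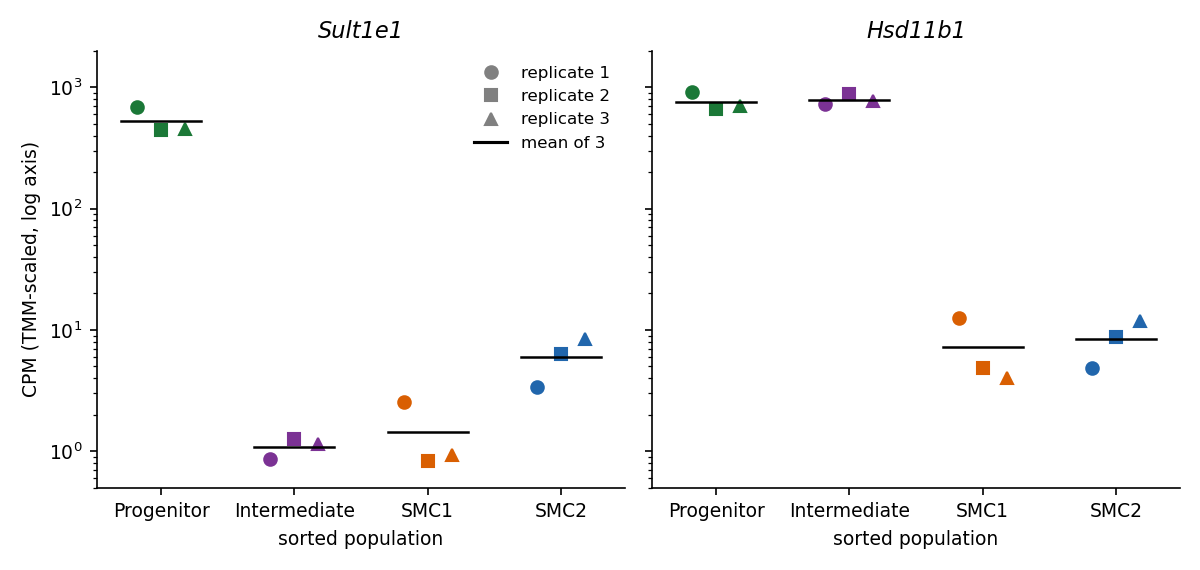
Level of Sult1e1 (left) and Hsd11b1 (right) in each of the 12 libraries, as CPM on a log axis; symbols are replicates 1 to 3 and lines are means of 3. Sult1e1 is at 448 to 688 CPM in Progenitor and at 0.839 to 8.40 CPM elsewhere, whereas Hsd11b1 is at 656 to 913 CPM in Progenitor and Intermediate and at 4.04 to 12.6 CPM in SMC1 and SMC2.

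As log2 differences between fitted group means, Sult1e1 was lower in Intermediate than in Progenitor by -8.92 ± 0.44 (SE), a fitted ratio of 483. That was the lowest of 19016 genes tested in this comparison, and 22.2% of all genes passed edgeR's test there (adjusted p below 0.05, termed called). The difference of Hsd11b1 in the same libraries was 0.06 ± 0.33. Its sign turned to -0.10 with upper-quartile scaling, to -0.05 with a stricter count filter and to -0.04 with a fit to these populations alone, all within its SE. In SMC1 against Progenitor, where 48.3% of genes were called, the differences were -8.51 ± 0.43 for Sult1e1 and -6.72 ± 0.43 for Hsd11b1, ranks 5 and 44 from the lowest. In SMC2 against Progenitor, where 44.8% were called, they were -6.47 ± 0.38 and -6.50 ± 0.43, ranks 27 and 25. These comparisons share the Progenitor libraries. Since the genes were chosen for these differences, the ranks describe the choice and support nothing.

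Between the smooth muscle populations, where 34.6% of genes were called, Sult1e1 was higher in SMC2 than in SMC1 by 2.04 ± 0.39 log2 units, and Hsd11b1 by 0.22 ± 0.37. SMC1 replicate 1 was the highest SMC1 library for both genes, and without it these differences were 2.73 ± 0.38 and 0.89 ± 0.30. Its absence also moved the differences from Progenitor, to -9.29 ± 0.43 for Sult1e1 and -7.48 ± 0.38 for Hsd11b1. The same library had the highest fibroblast marker sum in SMC1, 1971 CPM against 1124 and 1445 in replicates 2 and 3. Its leukocyte marker sum, over 8 genes, was 566 CPM against 121 and 132. SMC2 replicate 1 was the lowest SMC2 library for both enzymes and for the fibroblast marker sum, 427 CPM against 837 and 880. The part of these markers in the levels of Sult1e1 and Hsd11b1 was not tested.

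The low levels in the smooth muscle populations were set beside the fibroblast markers as a percentage of the Progenitor mean. Sult1e1 was at 0.272% in SMC1 and 1.14% in SMC2, and Hsd11b1 was at 0.948% and 1.11%. In SMC1 the 10 markers ran from 0.930% for Dcn, a matrix proteoglycan gene, to 55.6% for the collagen gene Col15a1, with a median of 2.83%. Sult1e1 lay below all 10 there, and Hsd11b1 above 1 of them. In SMC2 the markers ran from 0.854% for Pdgfra, the receptor gene that marks fibroblasts, to 4.92%, with a median of 1.54%, and each enzyme lay above 2 of the 10. In Intermediate the markers ran from 14.7% for Dpp4 to 243% for the collagen gene Col1a1, with a median of 81.6%. Hsd11b1, at 104%, was inside that range, and Sult1e1, at 0.206%, was below all 10 markers.

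**Figure D2:**
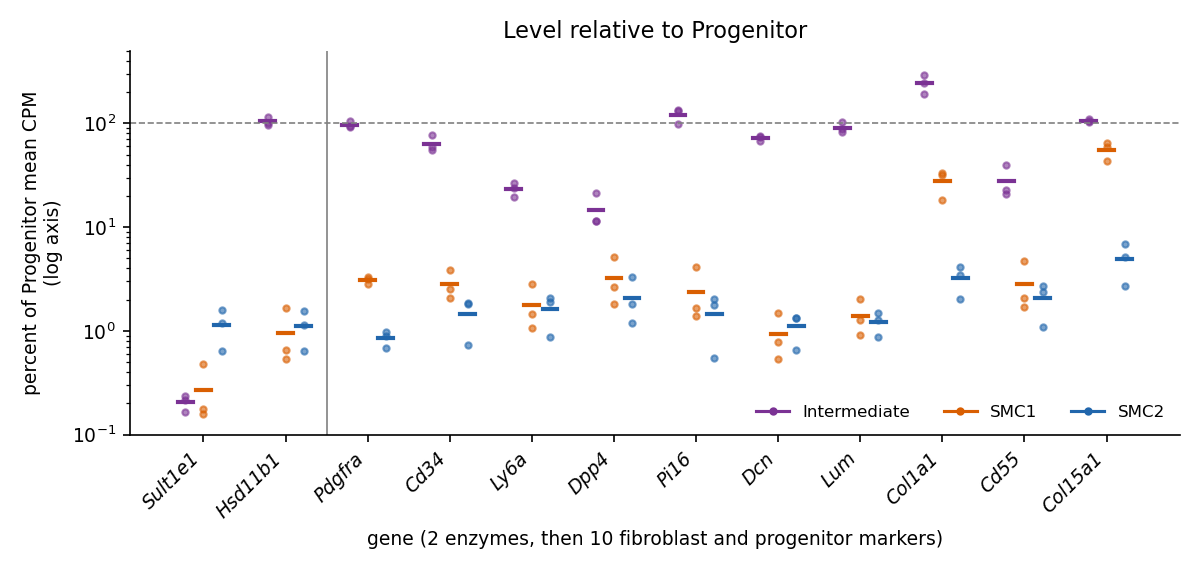
Level of Sult1e1, Hsd11b1 and 10 fibroblast and progenitor markers in Intermediate, SMC1 and SMC2 as a percentage of the Progenitor mean CPM, on a log axis; points are the 3 libraries, bars are their means and the dashed line is the Progenitor level. In Intermediate, Hsd11b1 is at 104% and Sult1e1 at 0.206%, below the lowest marker at 14.7%.

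The number of Sult1e1 reads per 100 Hsd11b1 reads does not depend on library size. It was 75.4, 68.2 and 64.5 in Progenitor libraries and 69.5, 72.7 and 71.4 in SMC2 libraries, which overlapped. It was 20.2, 17.1 and 23.2 in SMC1 and 0.120, 0.143 and 0.150 in Intermediate. In SMC1, where the level of Hsd11b1 differed by up to 3.12 times between libraries, the number still stayed within 17.1 to 23.2. These SMC1 numbers came from only 16 to 50 Sult1e1 counts and 69 to 248 Hsd11b1 counts in a library. SMC1 libraries lay between the Intermediate libraries and those of Progenitor and SMC2, with no overlap.

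**Figure D3:**
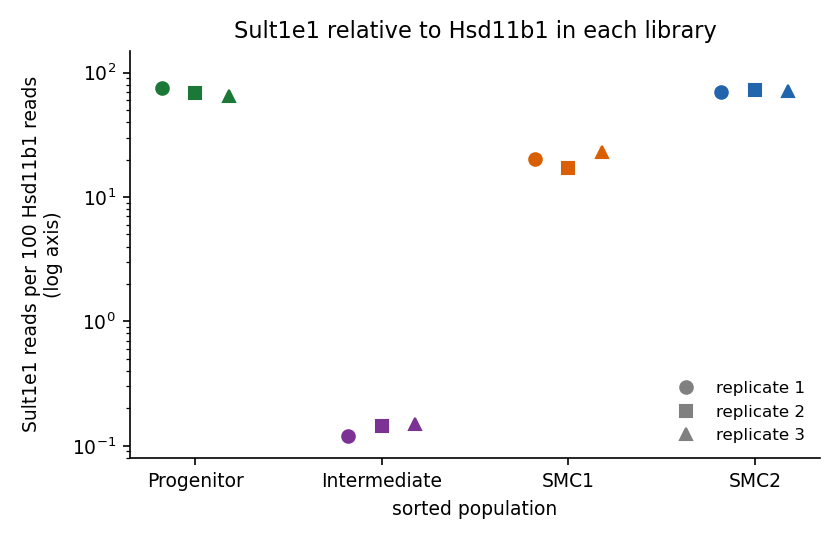
Sult1e1 reads per 100 Hsd11b1 reads in each of the 12 libraries, on a log axis, with replicates 1 to 3 as symbols. Progenitor (64.5 to 75.4) and SMC2 (69.5 to 72.7) overlap, SMC1 is at 17.1 to 23.2 and Intermediate at 0.120 to 0.150.

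Levels of different genes were compared per kilobase of exon, that is as CPM divided by exon length. On that scale Sult1e1 was at 427 ± 110 and Hsd11b1 at 178 ± 32.1 in Progenitor. The size of the gap depends on the length used, since dividing by the longest Hsd11b1 transcript, 1978 bases, put the Hsd11b1 mean at 383 ± 68.9. In Intermediate, Sult1e1 was at 0.879 ± 0.161 and Hsd11b1 at 186 ± 18.2 per kilobase of exon. Some related genes were lower on the same scale in Progenitor. Sult1a1, another sulfotransferase gene, was at 108 ± 29.5, H6pd at 57.2 ± 19.7 and Hsd11b2 at 0.644 ± 0.413. The receptors for the hormones stood at 3.18 ± 0.495 (Esr1), 30.9 ± 2.03 (Nr3c1) and 1.09 ± 0.0315 (Nr3c2).

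The other sulfotransferases conjugate phenols, sterols and hydroxysteroids. Of 13 listed genes, 12 were in the table and 4 passed the filter on low counts, while the other 8 never exceeded 11 counts in a library. Medians of the 4 were -0.66, -1.76 and -1.40 log2 units in Intermediate, SMC1 and SMC2 against Progenitor, beside 0.08, -0.005 and 0.06 over all genes tested. In Intermediate 1 was lower, in SMC1 3 and in SMC2 2, and none was higher. The genes called were Sult1a1, Sult2b1 and Sult5a1. Sult1a1, the main phenol sulfotransferase, fell in Intermediate, where 9.46% of all genes fell, from 163 ± 44.5 to 83.4 ± 6.58 CPM (log2 -0.97 ± 0.19, Benjamini-Hochberg adjusted p = 0.00107 by the edgeR quasi-likelihood method). It was also lower in SMC1 (-1.91 ± 0.20) and SMC2 (-2.30 ± 0.20), with adjusted p = 9.03e-08 and 7.22e-09 in the edgeR test. In those comparisons 23.1% and 21.7% of all genes were called lower.

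Sult5a1, like Hsd11b1, was high in both Progenitor and Intermediate. It was at 114 ± 11.5 CPM in Progenitor and 88.8 ± 5.80 in Intermediate, where its difference of -0.36 ± 0.20 was not called. It fell to 1.48 ± 0.219 CPM in SMC1 and 3.95 ± 1.55 in SMC2, with log2 changes of -6.25 ± 0.27 and -4.86 ± 0.24. It was called higher in SMC2 than in SMC1, by 1.39 ± 0.27, in a comparison where 16.5% of all genes were higher and 18.1% lower. Sult2b1, a cholesterol sulfotransferase, had at most 25 counts in a library. Its call in SMC1 (-1.60 ± 0.63, edgeR adjusted p = 0.0424) was lost without any 1 of 5 libraries, Progenitor 1 (0.0891), 2 (0.0584) and 3 (0.105) and SMC1 1 (0.137) and 2 (0.0918). It was also lost with DESeq2 (adjusted p = 0.0512) and with no filter (0.0541).

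Sulfation needs PAPS, made from sulfate and ATP by Papss1 and Papss2. Of 10 tested genes for sulfate uptake, PAPS synthesis, transport and breakdown, and sulfatase activation, 1 was higher and none lower in Intermediate, 2 higher and 6 lower in SMC1, and 1 higher and 4 lower in SMC2. Over all genes, 12.7%, 25.3% and 23.1% were higher there, and 9.46%, 23.1% and 21.7% lower. The list medians were 0.07, -0.49 and -0.46. Papss2 was at 111 ± 6.06 CPM in Progenitor and 156 ± 33.3 in Intermediate, a difference of 0.50 ± 0.21 that was not called. It fell to 25.3 ± 0.604 in SMC1 (-2.13 ± 0.22) and 10.1 ± 3.67 in SMC2 (-3.45 ± 0.23). Papss1 was in a narrow range, at 76.2 ± 6.56, 73.8 ± 9.02, 57.3 ± 5.84 and 74.7 ± 12.1 CPM in Progenitor, Intermediate, SMC1 and SMC2. Its call in SMC1 (-0.41 ± 0.16, edgeR adjusted p = 0.0404) was lost without Progenitor 1 (0.0641), 2 (0.0716) or 3 (0.158) or SMC1 2 (0.117), and with no filter (0.125).

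Slc35b2, which carries PAPS into the Golgi, fell in SMC1 (-0.57 ± 0.16) and SMC2 (-0.96 ± 0.16), from 116 ± 4.91 CPM in Progenitor to 78.2 ± 13.6 and 59.5 ± 4.93. The sulfate transporter gene Slc26a2 fell as well, by 0.91 and 0.57 on the log2 scale. Bpnt1, which breaks down the used donor, rose in both, from 27.8 ± 1.67 CPM to 49.3 ± 2.44 (0.82 ± 0.18) and 73.9 ± 11.4 (1.41 ± 0.18). The called gene in Intermediate was Sumf1, which activates sulfatases, at 152 ± 26.4 against 86.1 ± 7.49 CPM (0.82 ± 0.17, edgeR adjusted p = 0.00123). Steroid sulfatase (Sts), which reverses oestrogen sulfation, was not analysed here.

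Among 11 tested genes that make, interconvert or bind oestrogens, 1 was higher and 3 lower in Intermediate, 0 higher and 5 lower in SMC1, and 1 higher and 4 lower in SMC2. That made 45.5% called in SMC1 and in SMC2, close to the 48.3% and 44.8% of all genes, and 36.4% against 22.2% in Intermediate. The medians were -0.26, 0.15 and -0.35, so that in SMC1 the median was above 0 although the calls were all lower. Aromatase (Cyp19a1), which makes oestrogens, had at most 9 counts in a library, and the receptor gene Esr2 at most 14, so neither was tested. Esr1, the main oestrogen receptor, rose in Intermediate from 43.5 ± 6.77 to 90.0 ± 3.99 CPM (1.05 ± 0.24, edgeR adjusted p = 0.00418). SMC1 had 50.9 ± 15.3 CPM (0.23 ± 0.24, not called), and Esr1 fell to 9.11 ± 3.56 in SMC2 (-2.26 ± 0.26). All Intermediate libraries, at 85.9 to 93.9 CPM, lay above all Progenitor libraries, at 36.7 to 50.2.

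The membrane oestrogen receptor gene Gper1 was highest in SMC2, with 22.2 ± 5.38 CPM in SMC2, 4.19 ± 2.33 in SMC1, 2.85 ± 0.571 in Progenitor and 2.22 ± 0.366 in Intermediate. It rose in SMC2 by 2.96 ± 0.32 over Progenitor and by 2.40 ± 0.30 over SMC1. Cyp1b1, which hydroxylates oestradiol, was at 494 ± 136 CPM in Progenitor and 413 ± 25.9 in Intermediate and fell in SMC1 (-2.42 ± 0.22) and SMC2 (-2.97 ± 0.23). Hsd17b7, which reduces oestrone to oestradiol, fell in Intermediate from 20.7 ± 1.18 to 10.4 ± 1.69 CPM (-0.99 ± 0.18), and by 0.62 on the log2 scale in SMC1 and in SMC2. The 11-gene counts rested in part on single libraries. Without Intermediate replicate 3 or Progenitor replicate 1, 2 genes rather than 4 were called in Intermediate. In SMC1 the count of 5 became 2 without Progenitor 1, Progenitor 2 or SMC1 3, and 3 without SMC1 1.

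Of 10 tested genes known as oestrogen receptor targets in other tissues, 4 were higher and 0 lower in Intermediate, 1 higher and 8 lower in SMC1, and 3 higher and 6 lower in SMC2. Of all genes, 12.7% were higher and 9.46% lower in Intermediate, 25.3% and 23.1% in SMC1, and 23.1% and 21.7% in SMC2. The list medians were 0.24, -1.21 and -0.81, beside 0.08, -0.005 and 0.06 over all genes. The progesterone receptor gene Pgr was at 0.554 ± 0.165 CPM in Progenitor and 0.231 ± 0.0387 in Intermediate, which was not called. It rose in SMC1 to 19.1 ± 4.34 (5.12 ± 0.37) and in SMC2 to 2.73 ± 1.16 (2.32 ± 0.38). Nrip1, a receptor corepressor, rose in Intermediate from 210 ± 25.0 to 370.4 ± 16.8 CPM (0.82 ± 0.15) and fell in SMC1 (-1.15 ± 0.15) and SMC2 (-1.99 ± 0.16). The secreted factor gene Stc2 also rose in Intermediate, from 12.5 ± 3.61 to 44.0 ± 7.10 CPM (1.82 ± 0.22). The chemokine gene Cxcl12 was not called between Progenitor (916 ± 128) and Intermediate (957 ± 190) and fell to 81.7 ± 14.5 CPM in SMC1 and 151 ± 11.8 in SMC2.

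On the glucocorticoid side, 12 genes were tested. They cover the activation, inactivation and reduction of steroids, NADPH supply (H6pd, Slc37a4 and Pgls) and steroid synthesis (Cyp11a1, Cyp11b1, Cyp17a1 and Star). Of these, 1 was higher and 2 lower in Intermediate, 1 higher and 7 lower in SMC1, and 2 higher and 6 lower in SMC2. The 25% called in Intermediate was close to the 22.2% of all genes, while 66.7% were called in SMC1 and in SMC2 against 48.3% and 44.8%. The list medians were -0.03, -0.92 and -0.56. H6pd, which supplies NADPH to Hsd11b1, was likewise higher in Progenitor and Intermediate than in SMC1 and SMC2. Its means were 468 ± 59.0 CPM in Intermediate, 299 ± 103 in Progenitor, 84.7 ± 11.4 in SMC1 and 38.5 ± 2.84 in SMC2. It fell in SMC1 (-1.82 ± 0.21, adjusted p = 3.6e-07 in edgeR) and in SMC2 (-2.96 ± 0.22, adjusted p = 5.03e-10), against -6.72 and -6.50 for Hsd11b1.

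The libraries of H6pd overlapped between Progenitor (232, 248 and 418 CPM) and Intermediate (404, 478 and 521 CPM). Its difference there, 0.64 ± 0.20, was called (edgeR adjusted p = 0.0274), but the call did not hold under several settings. The adjusted p was 0.0894 with upper-quartile scaling, 0.0592 with the stricter filter and 0.068 in a fit to these populations alone. It was 0.123 without Progenitor 1, 0.111 without Progenitor 2, 0.0715 without Intermediate 2 and 0.083 without Intermediate 3. Without Intermediate 2, Intermediate 3 or Progenitor 2, the number of genes of the 12 called in Intermediate went from 3 to 1.

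Hsd11b2, which inactivates corticosterone, was near the limit of detection, with at most 30 counts in a library. Progenitor libraries averaged 1.18 ± 0.757 CPM, Intermediate 0.480 ± 0.215, SMC1 0.149 ± 0.118 and SMC2 0.173 ± 0.0777. The falls in SMC1 (-2.90 ± 0.74) and SMC2 (-2.73 ± 0.73) were called, but the second was lost without Progenitor 2 (edgeR adjusted p = 0.0541), the highest library. Akr1c14, a ketosteroid reductase gene, went the other way from Hsd11b1, from 7.36 ± 2.04 CPM in Progenitor and 7.26 ± 0.287 in Intermediate to 48.4 ± 4.74 in SMC1 and 21.6 ± 2.81 in SMC2. Its rises of 2.70 ± 0.19 and 1.54 ± 0.19 were called. Akr1c18, which inactivates progesterone, was highest in Progenitor, as Sult1e1 was, with 3.795 ± 1.74 CPM in Progenitor and means of 0.126, 0.0860 and 0.220 in Intermediate, SMC1 and SMC2. In log2 units it fell by 4.84 in Intermediate, fell by 5.36 in SMC1 and fell by 4.13 in SMC2, from at most 97 counts in a library.

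The glucocorticoid receptor gene Nr3c1 was detected in every population. It was at 238 ± 15.6 CPM in Progenitor, 261 ± 1.89 in Intermediate and 199 ± 10.02 in SMC1, differences that were not called, and fell to 101 ± 10.5 in SMC2 (-1.24 ± 0.15, edgeR adjusted p = 9.65e-07). Its SMC1 difference of -0.26 ± 0.15 was called under upper-quartile scaling (adjusted p = 0.0104) and the stricter filter (0.0354). The mineralocorticoid receptor gene Nr3c2, whose product also binds corticosterone, had a different order. It rose from 7.08 ± 0.204 CPM in Progenitor to 22.3 ± 3.03 in SMC1 (1.65 ± 0.21) and 24.5 ± 5.64 in SMC2 (1.79 ± 0.21). In Intermediate it was at 11.1 ± 2.41 CPM (0.64 ± 0.21). That call (edgeR adjusted p = 0.0319) was lost without any 1 of 5 libraries, Intermediate 2 (0.115) and 3 (0.119) and Progenitor 1 (0.063), 2 (0.0719) and 3 (0.0692). With all libraries it was also lost with DESeq2 (adjusted p = 0.0501), median-of-ratios (0.0503) or upper-quartile scaling (0.0975), the stricter filter (0.068) or no filter (0.0755), and in a fit to these populations alone (0.0885).

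Of 14 tested receptors, chaperones and cofactors, 4 were higher and 1 lower in Intermediate, 8 higher and 1 lower in SMC1, and 7 higher and 2 lower in SMC2. Thus 35.7%, 64.3% and 64.3% of the list were called, beside 22.2%, 48.3% and 44.8% of all genes. The list medians were 0.20, 0.46 and 0.41. Fkbp5, a chaperone that lowers receptor affinity and is itself induced by glucocorticoids, was at 300.4 ± 75.7 CPM in Progenitor and 396 ± 2.52 in Intermediate, which was not called (edgeR adjusted p = 0.13) except without Progenitor 3 (0.0199). It fell in SMC1 (-1.50 ± 0.19) and SMC2 (-2.59 ± 0.20). The cochaperone gene Stip1 rose in SMC1 from 157 ± 12.04 to 322 ± 31.1 CPM (1.04 ± 0.16), and the coactivator gene Ncoa3 from 50.7 ± 15.8 to 141 ± 18.6 (1.48 ± 0.19). The count of 5 called in Intermediate fell to between 1 and 3 without any 1 of 5 libraries, all but Progenitor 3, and to 3 with median-of-ratios scaling or with no filter. In SMC1 the count of 9 became 4 without SMC1 2 and 5 without SMC1 3, and in SMC2 it became 5 without SMC2 2 or with no filter.

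The 25 genes known as glucocorticoid receptor targets were all tested, and Fkbp5 is also among them. In Intermediate 3 were higher and 4 lower, in SMC1 6 and 11, and in SMC2 7 and 10. The 28% called in Intermediate was near the 22.2% of all genes, and the 68% called in SMC1 and in SMC2 stood beside 48.3% and 44.8%. The medians were -0.01, -0.44 and -0.40. Tsc22d3, which encodes the glucocorticoid-induced leucine zipper, rose in Intermediate from 1093 ± 161 to 1919 ± 343 CPM (0.81 ± 0.19, edgeR adjusted p = 0.00412). It fell to 192 ± 8.13 in SMC1 (-2.51 ± 0.20) and 439 ± 63.3 in SMC2 (-1.31 ± 0.19). Cebpd fell in SMC1 (-2.62 ± 0.19) and SMC2 (-2.05 ± 0.19). Angptl4, a lipase inhibitor gene, fell in SMC1 from 276 ± 41.0 to 17.4 ± 7.67 CPM (-3.99 ± 0.27) and was at 210 ± 11.7 in SMC2. It was not called in Intermediate (edgeR adjusted p = 0.0971), but was called lower there with the replicate number as a block (adjusted p = 0.026), and with upper-quartile scaling, another filter or a fit to these populations alone (0.0159 to 0.0462). Rgs2, a regulator of G protein signalling, rose in SMC2 to 151 ± 10.8 CPM (1.98 ± 0.18), and Hif3a to 16.2 ± 4.19 (2.70 ± 0.27).

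**Figure D4:**
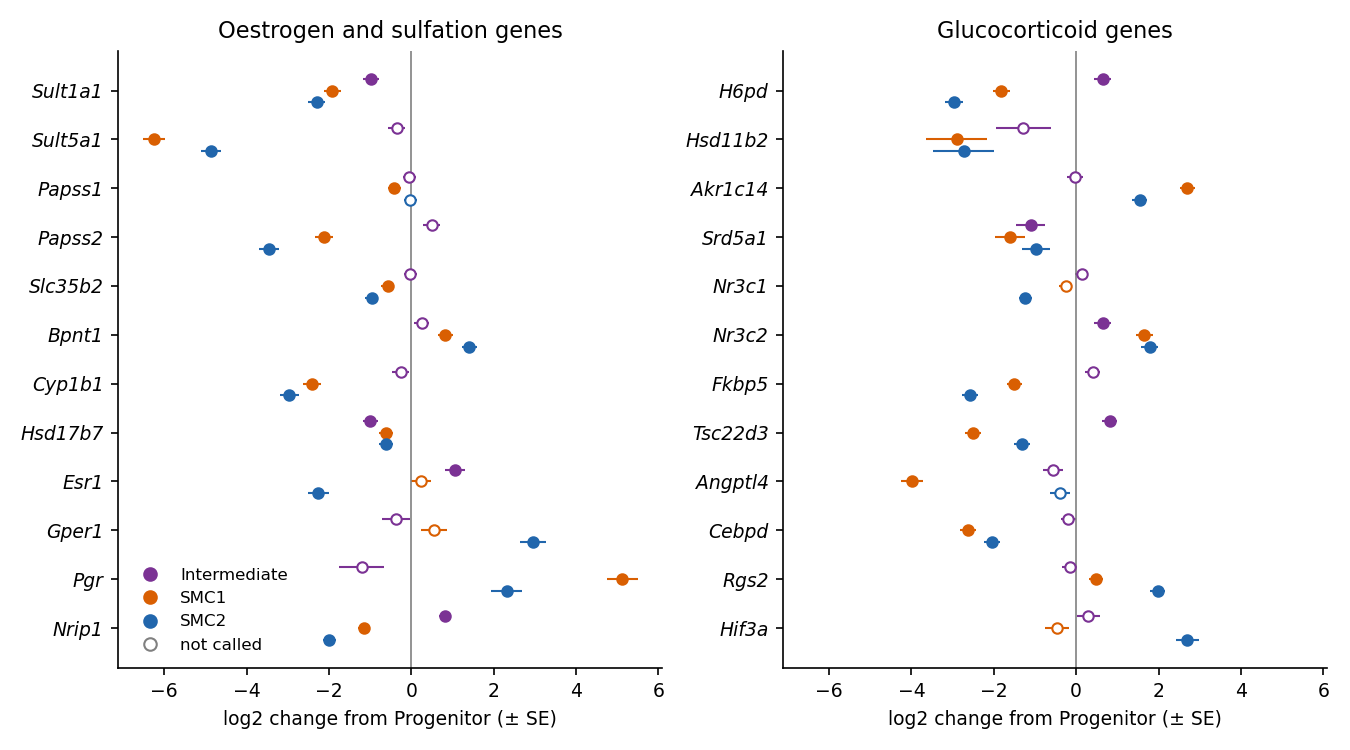
Log2 change from Progenitor, with its standard error, of 24 named genes of the oestrogen and sulfation lists (left) and the glucocorticoid lists (right) in Intermediate, SMC1 and SMC2; filled points passed the edgeR test at 0.05 and open points did not. H6pd and Fkbp5 are lower in SMC1 and SMC2, Nr3c2 and Akr1c14 are higher, and Esr1 is higher in Intermediate and lower in SMC2.

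Of 10 tested transcription factors known to act on Sult1e1 or Hsd11b1 in other tissues, 1 was higher and 2 lower in Intermediate, 1 higher and 6 lower in SMC1, and 5 higher and 4 lower in SMC2. These are 30%, 70% and 90% of the list, against 22.2%, 48.3% and 44.8% of all genes. Cebpd is both among these 10 and among the glucocorticoid receptor targets above. The list medians were 0.09, -0.80 and 0.93. Nr1h3, an oxysterol receptor, was highest in Progenitor, as Sult1e1 was. It fell from 73.7 ± 6.95 CPM to 22.9 ± 1.28 in Intermediate (-1.69 ± 0.16), 13.3 ± 2.03 in SMC1 (-2.47 ± 0.16) and 28.9 ± 2.48 in SMC2 (-1.35 ± 0.16). Cebpa, whose product activates Hsd11b1 in liver and fat cells, fell from 9.08 ± 3.75 CPM in Progenitor to 1.02 ± 0.407 in SMC1 (-3.14 ± 0.37) and 3.58 ± 0.195 in SMC2 (-1.33 ± 0.33). It was at 4.95 ± 1.43 CPM in Intermediate, where its difference of -0.87 ± 0.32 was not called (edgeR adjusted p = 0.0608). That difference was called with other scalings or filters, DESeq2 or a fit to these populations alone (0.025 to 0.0473), and without Progenitor 1 (0.0116) or Intermediate 2 (0.0477).

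Pparg, the regulator of fat cell differentiation, had 27.9 ± 9.996 CPM in Progenitor and fell to 2.27 ± 0.0504 in Intermediate and 8.17 ± 3.75 in SMC1. It rose to 366 ± 77.6 in SMC2, by 5.48 ± 0.32 over SMC1. In SMC2 against SMC1, 8 of the 10 factors were higher and 1 lower, and 7 of 8 adipocyte markers were higher and 1 lower. Over all genes 16.5% were higher and 18.1% lower there. The adipocyte markers summed to 1590 to 1867 CPM in SMC2 and 353 to 463 in SMC1. Sult1e1 was higher in SMC2 than in SMC1 as well, and the part of fat cell RNA in that difference was not tested. Other marker sums also moved with the populations. Mesothelial markers summed to 171 to 409 CPM in Intermediate against 39.2 to 67.1 in Progenitor, with 7 of 8 called higher and 1 lower. Of all genes, 12.7% were called higher and 9.46% lower in that comparison. Endothelial markers summed to 293 to 382 CPM in SMC1 and 48.4 to 132 elsewhere. Schwann cell markers were at 42.9 to 87.7 CPM in SMC2, 13.6 to 24.02 in SMC1 and 2.01 to 2.72 in the others. Of 4 plasma cell markers, Jchain, Igkc and Mzb1 were called lower in Intermediate and Sdc1 higher, beside 9.46% and 12.7% of all genes. Jchain, the antibody joining chain gene, was at 28.5 ± 5.55 CPM in Progenitor, where Sult1e1 was high, and 0.251 ± 0.0612 in Intermediate, and Igkc, an antibody light chain gene, at 35.5 ± 8.64 and 0.549 ± 0.423. The sum of the 4, which includes Sdc1 at 41.9 ± 7.18 and 122.6 ± 8.74 CPM, was 99.0 to 121 in Progenitor and 118 to 133 in Intermediate. The part of plasma cell or mesothelial RNA in the differences between these populations was not tested. The 5 hepatocyte markers, of a tissue with high Hsd11b1, summed to no more than 5.04 CPM in any library.

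Other conjugating enzymes of drugs and hormones gave 13 tested genes, with 0 higher and 3 lower in Intermediate, 0 higher and 8 lower in SMC1, and 0 higher and 8 lower in SMC2. The share called in Intermediate, 23.1%, was close to the 22.2% of all genes, and 61.5% were called in SMC1 and in SMC2 against 48.3% and 44.8%. The list medians were -0.08, -1.86 and -1.15. With the replicate number as a block, 6 rather than 3 were called in Intermediate, as in a fit to these populations alone, and 5 with DESeq2 or the stricter filter. Every alternative that left out no library of these populations called at least 4. Without Progenitor 1 or Progenitor 2, 1 was. Inmt, a methyltransferase gene, was at 939 ± 102 CPM in Progenitor and 352 ± 47.8 in Intermediate and fell to 5.26 ± 2.94 in SMC1 (-7.47 ± 0.48) and 7.48 ± 4.20 in SMC2 (-6.98 ± 0.47). Its Intermediate difference of -1.41 ± 0.36 (edgeR adjusted p = 0.0115) was not called without Intermediate 3 (0.0618), Progenitor 1 (0.0527) or Progenitor 2 (0.0528). The glutathione transferase gene Gstm5 fell in all 3, from 169.9 ± 21.4 CPM to 62.0 ± 4.25, 46.8 ± 11.4 and 28.2 ± 5.20 in Intermediate, SMC1 and SMC2. The nicotinamide methyltransferase gene Nnmt, at 45.5 ± 4.90 and 48.3 ± 2.28 CPM in Progenitor and Intermediate, fell to 1.88 ± 0.532 in SMC1 and 12.3 ± 2.30 in SMC2.

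The genes around the pair were described next. Within 200 kb of Sult1e1, GENCODE lists 17 other genes, 8 of which were in the table and none of which passed the filter on low counts. They included the nearest member of its family, Sult1d1, 6.94 kb away, at 0.436 ± 0.175 CPM in Progenitor. Within 200 kb of Hsd11b1 there were 16 genes, 10 in the table and 8 tested. The nearest gene outside it, G0s2, encodes an inhibitor of fat cell lipolysis and lies 8.09 kb away. G0s2 averaged 112 ± 14.9 CPM in Progenitor libraries, 168 ± 21.4 in Intermediate, 16.4 ± 4.79 in SMC2 and 3.68 ± 2.23 in SMC1. Its Intermediate difference of 0.59 ± 0.27 was not called (edgeR adjusted p = 0.126) except in a fit to these populations alone (0.0481), and it fell in SMC1 (-4.91 ± 0.33, edgeR adjusted p = 1.01e-09) and SMC2 (-2.77 ± 0.29, adjusted p = 3.32e-07).

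The other tested neighbours described here had low levels. A130010J15Rik was called in SMC1 against Progenitor (-0.60 ± 0.23), from 7.66 ± 1.97 to 5.06 ± 0.390 CPM. That call (edgeR adjusted p = 0.0402) was lost without Progenitor 1 (0.204) or 3 (0.11) or SMC1 2 (0.0668) or 3 (0.079), with no filter (0.0854) and in a fit to these populations alone (0.0562). Camk1g, a calcium-dependent kinase gene, was lower in SMC1 (-2.70 ± 0.66) and higher in SMC2 than in SMC1 (3.44 ± 0.64), with means of 0.100 to 1.18 CPM. The gene model Gm38118, inside the span of Hsd11b1 on the same strand, was called lower in SMC1 (-1.78 ± 0.69) and SMC2 (-2.32 ± 0.73), from 0.540 ± 0.195 CPM in Progenitor. The SMC1 call was lost without Progenitor 1 or 2 or SMC1 1 or 3 (edgeR adjusted p = 0.1 to 0.123), with no filter (0.0685) and with DESeq2 (0.0609), and the SMC2 call without Progenitor 1 (0.0501) or SMC2 1 (0.0512). The library kit does not mark strand, and intronic reads of Hsd11b1 cannot be told apart from this model. Lamb3, a laminin gene whose span crosses Hsd11b1 on the other strand without sharing exons, had means of 0.749 to 1.91 CPM and was not called. It was called in SMC1 without SMC1 3 (edgeR adjusted p = 0.0188), under the replicate block (0.0138), with no filter (0.0166) and in a fit to these populations alone (0.0376), and in SMC2 without SMC2 3 (0.0151). Diexf and Traf3ip3, with means between 0.510 and 3.81 CPM, were not called in any of the 4 comparisons.

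Genes with the most similar pattern were ranked by Pearson correlation of log2 CPM over the 12 libraries, among 9019 named genes whose mean reached 4 log2 CPM in some population. The libraries fall into 4 populations, so the values mostly reflect the order of the populations and are given as a description. For Sult1e1 the 8 highest were Pla1a (r = 0.984), Fgf10 (0.969), Naa20 (0.954), Adam12 (0.953), Adora2b (0.952), Adam19 (0.952), Colgalt2 (0.947) and Lurap1l (0.945). Pla1a, a phospholipase gene, was at 213 ± 42.1 CPM in Progenitor and 2.14 ± 0.585, 1.82 ± 1.35 and 3.26 ± 0.383 in Intermediate, SMC1 and SMC2. The growth factor gene Fgf10 was at 58.4 ± 16.3 CPM in Progenitor and had means of 0.607, 0.426 and 0.805 in the others. Naa20, an acetyltransferase gene, was far less separated, with 175 ± 13.0 CPM in Progenitor and means of 87.5 to 104 elsewhere, so a high r does not mean an equal size of difference.

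For Hsd11b1 the 8 highest were Dcn (r = 0.997), Lum (0.997), Olfml3 (0.996), Rab7b (0.996), Add3 (0.996), Mlkl (0.996), Efcc1 (0.996) and Ptgfr (0.995). Dcn and Lum, which encode matrix proteoglycans, belong to the fibroblast markers used above. Olfml3, which encodes a secreted matrix protein, averaged 815 ± 82.0 CPM in Progenitor libraries, 1031 ± 230 in Intermediate, 15.8 ± 6.23 in SMC2 and 14.3 ± 6.22 in SMC1. The prostaglandin receptor gene Ptgfr averaged 154 ± 24.5 and 179 ± 2.22 CPM in Progenitor and Intermediate, and 2.21 and 1.83 CPM in SMC1 and SMC2. No gene was on both lists, and the correlation between Sult1e1 and Hsd11b1 themselves was 0.452.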

How the data were processed

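RNA from the 12 libraries was amplified with the SMART-Seq v4 kit after poly(A) selection, per the labels' protocols. The authors deposited raw read counts, a normalized signal (counts divided by size factors) and regularized log2 values for 33352 genes. Per the submitters' processing notes, the tools were STAR 2.5.2a and DESeq2 1.26.0 and the build was mm10. How reads were counted, and with which annotation, is not given in the sources used here. On the deposited log2 scale, Sult1e1 differed between Intermediate and Progenitor by -8.38, against -8.96 from the normalized signal.

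Raw counts were fitted with edgeR 4.0.16 (limma 3.58.1, R 4.3.3), with TMM scaling, filterByExpr (19016 genes), a mean per population over all libraries (8 residual degrees of freedom, biological coefficient of variation 0.206) and robust two-sided quasi-likelihood F tests with Benjamini-Hochberg adjustment at 0.05. CPM were computed on TMM-scaled sizes, with a prior count of 2 for log2 CPM. SE was obtained from the log2 difference and its F statistic. The code was tested on simulated data. Replicates differed by more than sampling noise (chi-square per degree of freedom at least 8.17). Reads of amplified cDNA do not count independent molecules.

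The members, lists and tests were chosen with earlier results of these data known. Named genes are the pair, up to 6 members of a list with the smallest adjusted p, 10 pathway genes whatever their values, tested neighbours within 200 kb, and 8 genes most like each member. One gene that the rule names is not reported here. Deviations of same-numbered Intermediate and Progenitor libraries from their group means correlated at 0.17, 0.19 and 0.17 across genes. The main fit ignores the replicate number, and an alternative fit used it as a block over the libraries of all populations. Annotation is GENCODE M21 and promoters are from RefSeq GRCm38.p6; both genes matched. Alternatives were other scalings and filters, DESeq2 1.42.0, a replicate block, fits to single pairs of populations, another prior count or length, and leaving out each library.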

Additional observations from a re-analysis of the deposited data

How the results depend on the processing

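The differences of Sult1e1 and Hsd11b1 kept their place under the alternatives tried, apart from the near-zero differences of Hsd11b1. Without SMC1 replicate 1, the differences of both genes that involve SMC1 were larger in size, as described above. Leaving out 1 library at a time gave -9.02 to -8.67 for Sult1e1 in Intermediate against Progenitor, -9.29 to -8.27 in SMC1, -6.85 to -6.25 in SMC2 and 1.72 to 2.73 in SMC2 against SMC1. For Hsd11b1 the ranges were -0.02 to 0.23, -7.48 to -6.50, -6.88 to -6.31 and -0.09 to 0.89. The counts of genes called were 4218, 9194, 8522 and 6578 in the same order of comparisons, and 2771 to 4105, 7868 to 8615, 7298 to 8376 and 5439 to 6599 with 1 library left out. The lowest, 2771, was without Intermediate replicate 2. Upper-quartile scaling shifted the median change of all genes by -0.16, -0.18, -0.07 and 0.11. It lowered the share of higher genes among those called from 57.3% to 39.2% in Intermediate and from 52.3% to 41.3% in SMC1. In Intermediate that share was 44.4% with the stricter filter and 44.5% in a fit to those populations alone. The replicate block gave 4594, 9664, 8842 and 6945 genes called, and -8.90 and 0.08 for Sult1e1 and Hsd11b1 in Intermediate. Outside the pairing of Intermediate and Progenitor, same-numbered libraries did not all correlate above 0.1. The values were -0.02 to 0.27 for SMC1 and SMC2 with Progenitor, and -0.005 to 0.35 for SMC2 with Intermediate. The block added the calls of Cyp11a1, Cyp1b1 and Slc35b2 between SMC2 and SMC1. Of the 14 tested receptors, chaperones and cofactors, named or not, 5 rather than 6 were called in SMC2 against SMC1 with the block. It ended none of the 143 calls among 204 pairs of a named list gene and a comparison, where most genes were named for a small adjusted p. No such call turned direction under any alternative, and between 0 and 11 of them were lost under the alternatives that use all libraries, and between 2 and 14 with 1 library left out. Per kilobase of the longest transcript, Hsd11b1 was at 383, 400.0, 3.63 and 4.26 in Progenitor, Intermediate, SMC1 and SMC2, against 178, 186, 1.69 and 1.98 per kilobase of exon. Depth limits the low genes: Hsd11b2, Sult2b1 and Akr1c18 rest on fewer than 100 counts in a library. So does Sult1e1 in Intermediate and SMC1, with 14 to 50 counts.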
